A study of Homo sapiens with 6 samples.

Results

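LRRC15 and 7 other genes used as markers of activated fibroblasts were followed in LX-2 cells given transforming growth factor beta 1 (TGF-β1). The 8 genes are LRRC15, FAP, PDPN, THY1, S100A4, MME, CD248 and MCAM, and they were found by gene symbol, 1 row each, among the 27830 genes of the deposited table. The set was chosen by the difference of LRRC15 between these same libraries, in counts with TGF-β1 against control, with the others added as known markers while their values were known. The differences of the 8 genes are therefore given as a description, without p-values. LX-2 is an established human hepatic stellate cell line, grown here in culture. The 3 TGF-β1 samples received 10 ng/ml for 24 h in serum-free medium, and the other 3 are labelled Control. The medium of the controls during that time is not given in the labels, so a difference in serum cannot be told apart from the cytokine.

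Hepatic stellate cells are the liver's store of vitamin A. After injury they turn into myofibroblasts that lay down matrix, and TGF-β1 is the best known signal for that change. It acts through a pair of receptor kinases that phosphorylate SMAD2 and SMAD3, which enter the nucleus with SMAD4. Activated fibroblasts are recognised by proteins on their surface, and no single one of them marks all such cells. LRRC15 is a membrane protein with leucine-rich repeats, best known from fibroblasts of carcinomas and from fibroblasts exposed to TGF-β. FAP is a membrane serine protease that cuts after proline, and MME (neprilysin, CD10) is a membrane zinc metalloprotease. PDPN is a mucin-type glycoprotein that binds the platelet receptor CLEC1B. THY1 (CD90) is a small immunoglobulin-like protein held by a lipid anchor, and MCAM (CD146) is an immunoglobulin-like adhesion molecule of pericytes and endothelium. CD248 (endosialin) carries a C-type lectin domain, and S100A4 is an intracellular calcium-binding protein, so it is a fibroblast marker but no surface protein.

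Library totals ran from 13866957 to 16454700 counts with TGF-β1 and from 14118402 to 17694675 in the controls. Separate cultures are not stated for the replicates, so the p-values reflect only how these samples spread, and that spread may be technical. Pairs of libraries within a group all exceeded sampling noise (chi-square per degree of freedom 4.86 to 41.1), and each was counted as a sample. They also differed in how levels followed the GC content of transcripts. Over 1440 genes of up to 40% GC, the median log2 deviation from the gene mean was 0.71, 0.23 and -0.19 for the TGF-β1 libraries, in order of replicate number, against -0.10, -0.47 and -0.12 for the control libraries. Over 2135 genes of at least 60% GC it was -0.244, -0.0028 and 0.0923 with TGF-β1, and -0.0033, 0.233 and -0.0504 in the controls. A second fit with this trend removed is therefore set beside the first. The trend was fitted to each library without regard to its group, so a treatment difference that follows GC content is removed with it. Which of the 2 fits lies nearer to the effect of treatment was not tested. Of the stellate cell markers, PDGFRB had 660 to 898 counts per library and the transcription factor genes HAND2 and LHX2 had 187 to 283 and 134 to 194. LRAT and DES were nearly absent, with 0 to 2 and 1 to 5 counts, while GFAP, RELN and NGFR had 23 to 44, 14 to 45 and 98 to 211.

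The 7 genes that could be tested showed 3 patterns. LRRC15, FAP and PDPN were higher in every TGF-β1 library than in any control library, at 3.77-fold, 4.37-fold and 1.60-fold in the fit. MCAM was slightly lower, at 0.831-fold, also without overlap. THY1, MME and S100A4 overlapped between the groups, and CD248 was too rare to test. Among the 7 genes tested, 3 were higher and 1 was lower without overlap, where 7.93% and 9.12% of the 14463 genes tested were (17.1% in either direction). At 1 of 7, the lower count is near the share of all genes. By edgeR at an adjusted p under 0.05, 1 of the 7 was called, LRRC15, where 0.366% of all genes tested were. With the GC trend removed 3 of the 7 were called, LRRC15, FAP and PDPN, where 3.38% of all genes were. A log2 fold change of 1 or more in size was found in 2 of the 7, LRRC15 and FAP, and in 3.07% of all genes. The members were chosen with this contrast known, and these counts are no evidence of their own. The median log2 fold change was 0.35 over the 7 genes and 0.01 over all genes tested.

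**Figure D1:**
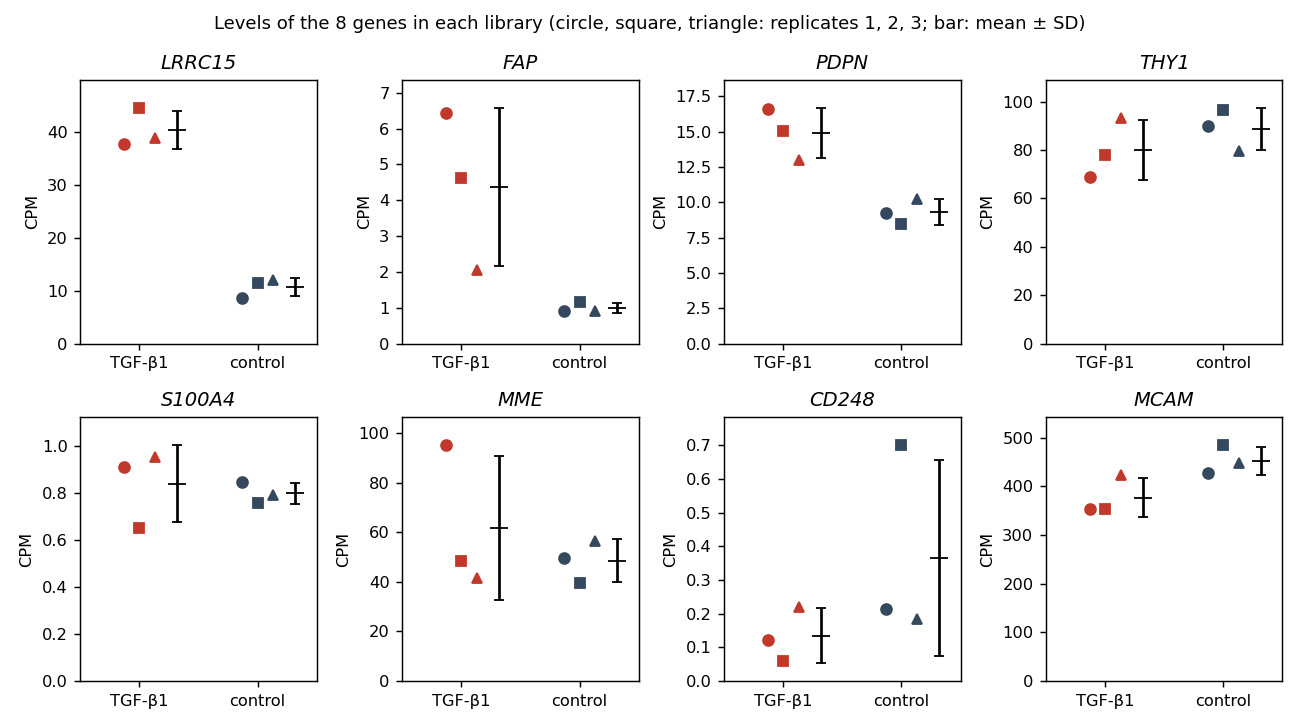
Level of each of the 8 genes in CPM (counts scaled to library size, linear axes from 0) in the 3 TGF-β1 and the 3 control libraries, with a symbol for each replicate and a bar for the mean ± SD. The TGF-β1 points of LRRC15, FAP and PDPN all lie above the control points, and those of MCAM all lie below them, by a small margin.

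The promoter of LRRC15 was the only 1 of 5 examined that held an AP-1 sequence, and that of MME the only 1 with a TEAD sequence. Promoters from RefSeq (build GRCh38.p14) matched 5 of the 8 genes by symbol: LRRC15, PDPN, S100A4, MME and MCAM. The 250 bases before the annotated start are printed for LRRC15 and PDPN, which were higher with TGF-β1, and for MCAM. MCAM was lower without overlap but was not called. They lie at chr3:194369744-194369993 on the minus strand (LRRC15), chr1:13583507-13583756 on the plus strand (PDPN) and chr11:119317131-119317380 on the minus strand (MCAM). Capitals mark matches, on either strand, to CAGAC (the core of a SMAD box), TGANTCA (AP-1), GGAATG (TEAD) and CANNTG (E box). RefSeq starts need not be the ends of the gene spans given with each gene: the PDPN and MCAM windows lie inside those spans, and the LRRC15 window adjoins its own. No matches overlapped.
LRRC15: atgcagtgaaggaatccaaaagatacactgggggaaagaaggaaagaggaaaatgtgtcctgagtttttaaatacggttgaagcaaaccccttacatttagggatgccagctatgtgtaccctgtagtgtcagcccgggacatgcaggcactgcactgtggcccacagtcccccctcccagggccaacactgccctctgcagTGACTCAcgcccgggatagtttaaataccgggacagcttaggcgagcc
PDPN: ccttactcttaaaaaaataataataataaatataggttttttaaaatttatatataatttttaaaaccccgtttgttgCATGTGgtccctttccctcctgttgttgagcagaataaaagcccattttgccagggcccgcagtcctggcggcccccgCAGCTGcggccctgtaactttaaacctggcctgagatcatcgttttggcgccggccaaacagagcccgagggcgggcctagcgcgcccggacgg
MCAM: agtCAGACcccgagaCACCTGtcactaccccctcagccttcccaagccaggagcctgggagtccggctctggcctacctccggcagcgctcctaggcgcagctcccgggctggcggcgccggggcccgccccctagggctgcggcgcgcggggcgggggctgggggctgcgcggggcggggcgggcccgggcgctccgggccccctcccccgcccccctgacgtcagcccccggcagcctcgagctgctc
The LRRC15 window holds 1 AP-1 match, TGACTCA, whose first base lies at -48 from the start, and no match to the other motifs. AP-1 matches stood in 6.57% of 35116 promoter windows of the same length, and in none of the other 4 matched genes. The PDPN window holds 2 E boxes, at -172 and -94. The MCAM window holds CAGAC at -247 and an E box at -235, and S100A4 had CAGAC at -20 and an E box at -164. MME had GGAATG at -219 and an E box at -143. CAGAC stood in 38.0% of all windows, GGAATG in 11.9% and CANNTG in 61.8%. A GC content of 79.6% sets the MCAM window apart from those of LRRC15 (52.8%) and PDPN (48.8%). A match is a string of letters and not a measured binding site.

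LRRC15 had the most clear-cut difference of the 8 genes, which the choice of the set by that difference favoured. The gene spans 194355247 to 194369743 of chromosome 3 (GRCh38, minus strand), and no exon base overlaps another gene. Its counts were 622, 752 and 528 with TGF-β1, by replicate number, against 123, 196 and 197 in the controls. On TMM-scaled library sizes these were 37.8, 44.6 and 38.9 CPM with TGF-β1, and 8.70, 11.4 and 12.01 CPM in the controls. The groups were far apart: the lowest TGF-β1 library held more than 3 times the CPM of the highest control. The log2 fold change was 1.91 ± 0.18 (SE), and 2.01 ± 0.14 with the GC trend removed. It ran from 1.78 to 1.99 when each library was left out in turn. The SD of log2 CPM was 0.13 with TGF-β1 and 0.25 in the controls, so the treated libraries were the closer set.

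FAP had a fold change of the size of that of LRRC15 in the first fit, but from far fewer reads. FAP lies on chromosome 2 from 162170684 to 162245151, and 9.11% of its exon bases overlap AC007750.1 on the other strand, from which reads cannot be told apart without strand. Its counts were 106, 78 and 28 with TGF-β1, by replicate number, against 13, 20 and 15 in the controls. That gave 6.44, 4.63 and 2.06 CPM with TGF-β1, and 0.919, 1.17 and 0.914 CPM in the controls. The groups did not overlap, yet TGF-β1 replicate 3 held under 1 in 3 of the CPM of replicate 1. The log2 fold change was 2.13 ± 0.40 (SE), and 1.75 to 2.45 when each library was left out in turn. FAP transcripts are low in GC (38.6%), and the TGF-β1 libraries ranked in FAP as they did in the median of genes low in GC. The controls did not: FAP was highest in control replicate 2, where that median was lowest. The part of GC content in the spread of FAP was not tested. With the GC trend removed the log2 fold change of FAP was 1.60 ± 0.30, and the groups still did not overlap. The SD of log2 CPM with TGF-β1 was then 0.45, against 0.85 before, while in the controls it was 0.40, against 0.20 before. Over all 3 libraries FAP had 212 counts with TGF-β1 and 48 in the controls, which is 4.55 CPM (95% exact Poisson interval 3.96 to 5.20, counting error only) and 0.997 CPM (0.735 to 1.32).

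PDPN was higher by a smaller and more even step. It lies on chromosome 1 from 13583465 to 13617957 with no exon base shared with another gene. It had 273, 254 and 177 counts in the TGF-β1 libraries and 131, 145 and 168 in the control libraries, or 16.6, 15.1 and 13.02 CPM with TGF-β1 and 9.26, 8.45 and 10.2 CPM in the controls. The gap between the lowest treated and the highest control library was narrow beside that of LRRC15. The log2 fold change was 0.68 ± 0.18 (SE) and hardly moved with the GC trend removed (0.70 ± 0.14).

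**Figure D2:**
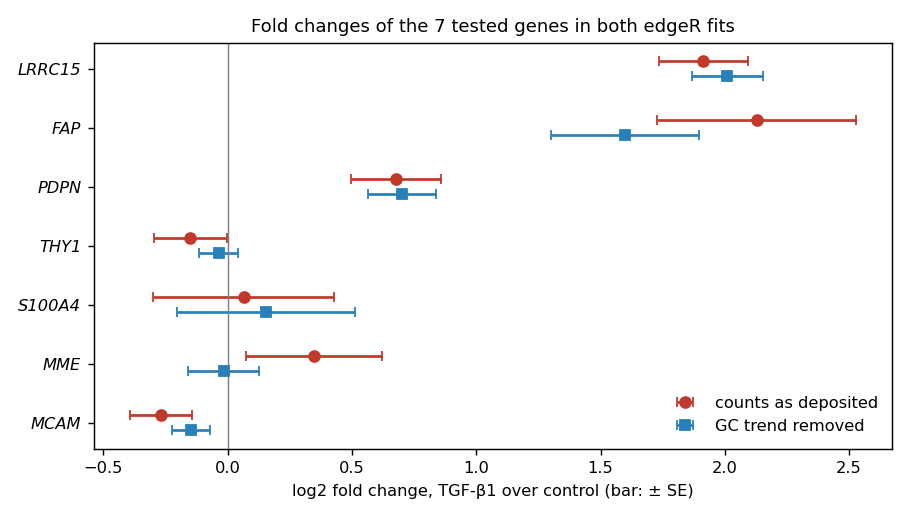
Log2 fold changes (TGF-β1 over control, ± SE, 3 libraries a group) of the 7 tested genes in the edgeR fit of the deposited counts (circles) and with the trend on transcript GC content removed (squares). LRRC15 and PDPN sit at nearly the same place in both, FAP lies at 1.60 after removal and 2.13 before it, and MME at -0.02 and 0.35.

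MME, the other membrane protease of the set, was high in 1 library. It lies on chromosome 3 from 155024124 to 155183729, and MME-AS1 on the other strand shares 2.22% of its exon bases. MME had 95.1, 48.5 and 41.6 CPM with TGF-β1, by replicate number, against 49.7, 39.4 and 56.6 CPM in the controls. Replicates 2 and 3 lay within the range of the controls. The log2 fold change of 0.35 ± 0.27 (SE) became -0.11 without TGF-β1 replicate 1 and -0.02 ± 0.14 with the GC trend removed. MME transcripts hold 41.2% GC, and TGF-β1 replicate 1 is the library in which genes low in GC were highest. With the GC trend removed that library was still the highest, at 67.7 CPM. TGF-β1 replicates 2 and 3 were then at 43.8 and 46.9 CPM, below the controls at 51.41, 51.38 and 57.8 CPM. The part of GC content in the high library was not tested.

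The immunoglobulin-like proteins THY1 and MCAM were the most abundant of the 8 and differed little between the groups. THY1 lies on chromosome 11 from 119417378 to 119424985, and MCAM on the same chromosome from 119308529 to 119321521. THY1 had 69.1, 77.9 and 93.2 CPM with TGF-β1 and 90.1, 96.7 and 79.5 CPM in the controls, and the groups overlapped. Its log2 fold change was -0.15 ± 0.15 (SE, 95% interval -0.47 to 0.17), and -0.04 ± 0.08 with the GC trend removed. MCAM had 353.3, 353.7 and 422.7 CPM with TGF-β1 and 427.5, 484.5 and 447.2 CPM in the controls. The highest treated library came close to the lowest control. For MCAM the log2 fold change was -0.27 ± 0.12 (SE, 95% interval -0.54 to 0.01), and -0.15 ± 0.08 with the GC trend removed. Exons of AP003396.5 on the other strand overlap 10.7% of the exon bases of THY1, and CBL on the other strand is the main overlap with MCAM (7.71%). MCAM is known from pericytes, whose summed markers were 418.4 to 481.2 CPM with TGF-β1 and 463.7 to 558.3 CPM in the controls. CSPG4 carried most of that sum (352.9 CPM with TGF-β1 and 402.1 CPM in the controls) while RGS5 had 6 to 13 counts per library; the part of such cells in the MCAM difference was not tested. In bulk RNA, fewer cells of a type and less RNA per cell cannot be told apart.

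S100A4 and CD248 were close to the limit of detection. S100A4 lies on chromosome 1 from 153543613 to 153550136 and CD248 on chromosome 11 from 66314487 to 66317044. S100A4 had 15, 11 and 13 counts with TGF-β1 and 12, 13 and 13 in the controls, which is 0.911, 0.652 and 0.956 CPM with TGF-β1 and 0.848, 0.758 and 0.792 CPM in the controls. Its log2 fold change of 0.06 had a 95% interval of -0.73 to 0.86. CD248 had 2, 1 and 3 counts with TGF-β1 and 3, 12 and 3 in the controls, at or under the floor of 3 counts in 5 of the 6 libraries, and no fold is given. Its control sum of 18 counts rested mostly on control replicate 2.

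**Figure D3:**
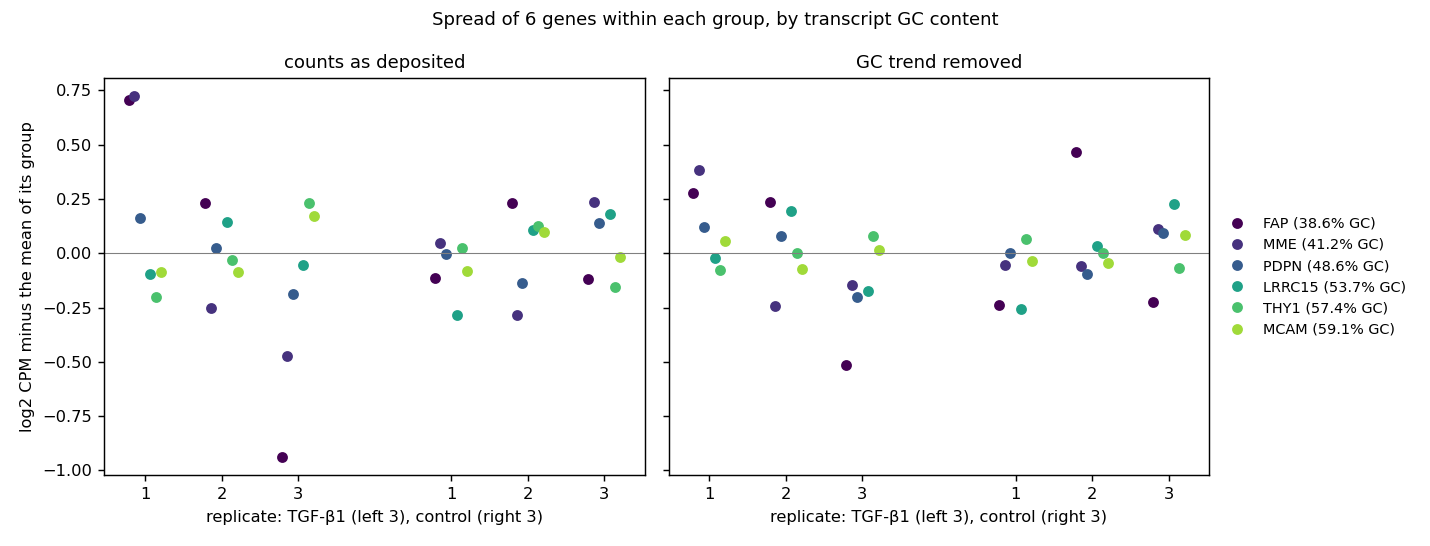
Log2 CPM of 6 of the genes in each library minus the mean of its group, for deposited counts (left panel) and with the GC trend removed (right panel), coloured by transcript GC content from 38.6% (FAP) to 59.15% (MCAM). In the left panel FAP and MME are highest in TGF-β1 replicate 1 and lowest in replicate 3, while THY1 and MCAM are highest in replicate 3. Among the TGF-β1 libraries LRRC15 and PDPN spread less than FAP and MME.

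The spread between TGF-β1 libraries differed by gene, and the order of libraries with it. FAP and MME, the genes lowest in GC, had an SD of log2 CPM of 0.85 and 0.64 with TGF-β1, which became 0.45 and 0.34 with the trend removed. THY1 (57.4% GC) and MCAM had the opposite order of libraries, with an SD of 0.08 and 0.07 once the trend was removed, against 0.22 and 0.15 before. With TGF-β1 the SD of LRRC15 (53.7% GC) rose from 0.13 to 0.18 on removal, while that of PDPN (48.6% GC) stayed at 0.18. Both were then above the SD of THY1 and MCAM and below that of FAP and MME. In the control libraries, removal raised the SD of FAP from 0.20 to 0.40 and lowered that of MME from 0.26 to 0.10. The GC trend was fitted over all genes, these among them.

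Levels of different genes can be set side by side per length, as deposited FPKM. With TGF-β1 the order was MCAM (50.9 ± 4.25 FPKM, SD, n = 3), THY1 (11.6 ± 1.56), LRRC15 (6.85 ± 0.735), MME (6.31 ± 3.02), PDPN (4.04 ± 0.55), S100A4 (0.891 ± 0.159), FAP (0.635 ± 0.325) and CD248 (0.0523 ± 0.0307). LRRC15 and MME overlapped between libraries there, as did MME and PDPN, and S100A4 and FAP; the other neighbours in this order did not. In the controls the order was MCAM (60.5 ± 2.79 FPKM), THY1 (12.8 ± 1.05), MME (4.89 ± 0.953), PDPN (2.496 ± 0.282), LRRC15 (1.79 ± 0.29), S100A4 (0.839 ± 0.061), FAP (0.142 ± 0.0175) and CD248 (0.14 ± 0.109). Here FAP and CD248 were the only neighbours that overlapped. LRRC15 was thus 3 or 4 in rank in each TGF-β1 library and 5 in each control library. The FPKM of LRRC15 was 1.42 to 1.86 times that of PDPN with TGF-β1, and 0.586 to 0.844 times that of PDPN in the controls. Beside THY1, LRRC15 stood at 0.484 to 0.666 times its FPKM with TGF-β1 and at 0.112 to 0.175 times in the controls. FAP stayed near the bottom of the order in both groups whatever its fold change: its mean FPKM exceeded that of 15.8% of all tested genes with TGF-β1 and of 2.91% in the controls, where LRRC15 exceeded 60.7% and 34.5%.

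**Figure D4:**
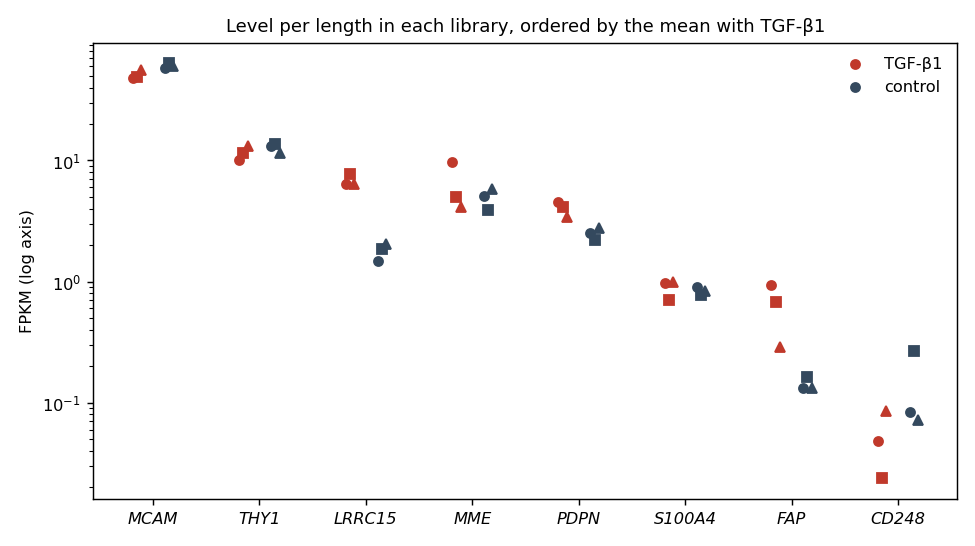
FPKM (log axis) of the 8 genes in each library, ordered by the mean with TGF-β1 (red) and set beside the controls (dark blue), with a symbol for each replicate as in the plot of CPM. MCAM leads in both groups, LRRC15 passes PDPN with TGF-β1, and FAP and CD248 stay below 1 FPKM in every library.

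The nearest protein-coding genes to LRRC15 on either side, CPN2 and GP5, also encode leucine-rich repeat proteins. CPN2, which encodes a subunit of carboxypeptidase N, lies 3919 bases from LRRC15 and had 0, 3 and 3 counts with TGF-β1 and 1, 0 and 2 in the controls. GP5, a platelet glycoprotein gene 25078 bases away on the other side, had 0 counts in every TGF-β1 library and 1, 0 and 0 in the controls. Both were near or under the floor of 3 counts in both groups. Farther out, ATP13A3, a transporter gene, had 284.2, 167.5 and 120.7 CPM with TGF-β1, against 101.2, 83.1 and 127.0 CPM in the controls. The ATP13A3 groups overlapped, and the gene was not called (edgeR adjusted p = 0.171, log2 fold change 0.88 ± 0.27 SE, and 0.29 with the GC trend removed). HES1, a Notch target on the far side of CPN2, had 11.95 ± 1.64 CPM with TGF-β1 and 10.1 ± 0.173 CPM in the controls (SD, n = 3; edgeR adjusted p = 0.534).

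Other leucine-rich repeat membrane and matrix proteins were set beside LRRC15. Of 24 tested, 0 passed in either direction by edgeR, 6 had an unadjusted p under 0.05, and DESeq2 called 2; the median log2 fold change was 0.17. Over all genes tested, 2262 of 14463 had an unadjusted p under 0.05, and DESeq2 called 597 genes. Of the 24, edgeR called 4 without TGF-β1 replicate 3 and 2 without TGF-β1 replicate 1. In those fits 1671 and 324 of all genes were called. The log2 fold change farthest from 0 was that of LRRC17, a secreted protein, with 506.2 ± 143 CPM with TGF-β1 and 249.1 ± 54.5 CPM in the controls (log2 fold change 1.02 ± 0.22 SE, edgeR adjusted p = 0.0857). With the GC trend removed, LRRC17 (0.76, edgeR adjusted p = 0.00325) and the adhesion protein gene AMIGO2 (0.47, edgeR adjusted p = 0.038) were higher in the TGF-β1 libraries. Of all genes tested, 1.76% rose in that fit. LRRC32, known as GARP, which holds latent TGF-β on the cell surface, was low in both groups (1.54 ± 0.103 CPM with TGF-β1 and 1.23 ± 0.331 CPM in the controls, edgeR adjusted p = 0.653). TPBG, the trophoblast glycoprotein, was high in both, at 316.9 ± 9.96 and 334.9 ± 4.48 CPM in TGF-β1 and control libraries (edgeR adjusted p = 0.764). The 95% interval of its log2 fold change was -0.32 to 0.16.

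A myofibroblast programme reported with LRRC15 in tumours was in part present. Of 21 tested genes of that list, 5 rose and 0 fell: FN1 (fibronectin), TGFBI (a secreted matrix protein), TAGLN (transgelin), VCAN (versican) and NTM (neurotrimin, a lipid-anchored adhesion protein). In the background, 0.187% of genes rose and 0.180% fell. The median log2 fold change of the list was 0.17, and -0.008 with the GC trend removed. The list was written with earlier results of these libraries known, so its count is not independent evidence. Without TGF-β1 replicate 2 or without control replicate 1, 3 genes of the list were called, where 4 and 13 of all genes were. NTM, named after its values were seen since the rule took 4 genes, had the tightest replicates of the 5. It had 18.2, 18.3 and 17.4 CPM with TGF-β1 and 9.40, 9.21 and 9.69 CPM in the controls (log2 fold change 0.93 ± 0.16 SE, edgeR adjusted p = 0.0381). VCAN had 113.1, 74.1 and 55.1 CPM with TGF-β1 and 19.4, 19.4 and 25.2 CPM in the controls, with TGF-β1 replicate 1 the highest, as for FAP (log2 fold change 1.92 ± 0.24 SE, edgeR adjusted p = 0.00726). With the GC trend removed the same 5 genes rose with CDH11, a cadherin of mesenchymal cells, and COL8A1 and HOPX fell. Over all genes tested, 1.76% rose and 1.62% fell in that fit.

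Several genes that define such fibroblasts elsewhere were barely read in LX-2 cells; they, and the well-read ones after them, are named after their values were seen. POSTN (periostin) had 0 to 10 counts per library, CTHRC1 1 to 7, COL11A1 1 to 7, COL10A1 2 to 14 and SULF1 0 to 2, and none of these 5 passed the filter on low counts. Others passed it at low levels: ACTA2, the α-smooth muscle actin gene, had 65 to 92 counts (edgeR adjusted p = 0.898) and ITGA11, an integrin chain for collagen, 6 to 32 (edgeR adjusted p = 0.223). INHBA, a chain of activin, had 99.1 ± 27.8 CPM with TGF-β1 and 71.1 ± 6.47 CPM in the controls (edgeR adjusted p = 0.255). Other genes of the list were well read and did not pass: GREM1, a BMP antagonist, had 2295 ± 506 CPM with TGF-β1 and 2042 ± 216 CPM in the controls (edgeR adjusted p = 0.649), and the collagen gene COL5A2 had 780.8 ± 66.1 and 660.8 ± 35.3 CPM in TGF-β1 and control libraries (edgeR adjusted p = 0.352). Of 31 genes of the list in the table, 21 could be tested.

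Genes of the inflammatory type of activated fibroblast mostly did not pass. Of 14 tested, 1 rose and 1 fell (median log2 fold change -0.04), where 0.187% and 0.180% of all genes tested did. As over all genes, calls moved with single libraries: 0 of the 14 were called without TGF-β1 replicate 2, control replicate 1 or control replicate 3, and 3, 4 and 5 in the same leave-outs with the GC trend removed. Of all genes, those leave-outs called only 4, 13 and 15, and 107, 111 and 428 with the trend removed. Leaving out control replicate 2 gave 1 call and leaving out TGF-β1 replicate 1 gave 5, where 37 and 324 of all genes were called. With all samples 6 of the 14 had an unadjusted p under 0.05, where 2262 of all 14463 genes tested did. CXCL12, a chemokine, had 16.3, 19.8 and 16.9 CPM with TGF-β1 and 8.98, 7.81 and 8.35 CPM in the controls (log2 fold change 1.07 ± 0.18 SE, edgeR adjusted p = 0.0279). C3, a complement component, had 56.8, 52.2 and 73.0 CPM with TGF-β1 and 109.8, 133.0 and 105.3 CPM in the controls (log2 fold change -0.94 ± 0.16 SE, edgeR adjusted p = 0.0314). With the GC trend removed, 2 of the 14 rose and 4 fell, where 1.76% and 1.62% of all genes tested did. PI16 rose beside CXCL12, and CXCL8, PTGS2 and VCAM1 fell beside C3. For CXCL8 the log2 fold change was -0.06 before removal and -0.58 after it. IL6 had 51.6 ± 4.99 and 50.7 ± 3.26 CPM in TGF-β1 and control libraries (edgeR adjusted p = 0.947).

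Among 32 other surface proteins of fibroblasts and stromal cells, 0 passed by edgeR in either direction, 11 had an unadjusted p under 0.05, and DESeq2 called 4 (median log2 fold change -0.03). Over all genes tested, 2262 of 14463 had an unadjusted p under 0.05, and DESeq2 called 597 genes. Of the 32, edgeR called 11 without TGF-β1 replicate 3, where 1671 of all genes were called. With the GC trend removed, 3 rose (MRC2, a collagen uptake receptor, DDR2, a collagen receptor kinase, and TNFRSF11B, osteoprotegerin, which is secreted) and 4 fell (CD9, CD55, L1CAM and BCAM), where 1.76% and 1.62% of all tested genes did so. PDGFRB, the platelet-derived growth factor receptor that stellate cells carry, had 47.3 ± 5.37 CPM with TGF-β1 and 47.7 ± 4.26 CPM in the controls (edgeR adjusted p = 0.979). Its relative PDGFRA had 6 to 12 counts per library.

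Close relatives of the other members were read at very different levels. Of 18 tested, 0 passed by edgeR, 5 had an unadjusted p under 0.05, and DESeq2 called 1 (median log2 fold change -0.08). Over all genes tested, 2262 of 14463 had an unadjusted p under 0.05, and DESeq2 called 597 genes. Without TGF-β1 replicate 3, edgeR called 5 of the 18, where 1671 of all genes were called. DPP4, the closest relative of FAP, had 6, 7 and 3 counts with TGF-β1 and 4, 3 and 3 in the controls. FAP was the better read of the pair in both groups. S100A6, S100A10 and S100A11 were read at 288.5, 244.9 and 428.7 FPKM with TGF-β1 and at 419.7, 321.6 and 380.7 FPKM in the controls, where S100A4 stayed below 1 FPKM. Of the 18, 1 rose with the GC trend removed, S100A16, and 4 fell, S100A6, S100A10, BCAM and L1CAM. Over all genes tested, 1.76% rose and 1.62% fell in that fit. S100A6 and S100A10 did not pass without removal (edgeR adjusted p = 0.146 and 0.167). ECE1, the relative of MME that makes endothelin, had 440.6 ± 59.9 CPM with TGF-β1 and 514.0 ± 56.4 CPM in the controls (edgeR adjusted p = 0.465). CLEC14A, a relative of CD248, had 0 or 1 counts per library.

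Of 28 tested ligands and partners of the members, 1 rose, FN1, which CD248 binds, where 0.187% of all genes rose; 12 of the 28 had an unadjusted p under 0.05 (median log2 fold change -0.07). Without TGF-β1 replicate 1 or replicate 3, edgeR called 3 and 7, and DESeq2 called 5 with all samples. Over all genes these fits called 324, 1671 and 597, and 2262 of 14463 had an unadjusted p under 0.05 in the first fit. ITGAV, the integrin chain that pairs with ITGB3 as a receptor for THY1, had 187.0, 124.6 and 75.5 CPM with TGF-β1 and 52.0, 38.4 and 51.4 CPM in the controls. All treated libraries were above the controls, in the same order as for FAP (log2 fold change 1.45 ± 0.27 SE, edgeR adjusted p = 0.0542, and 0.96 with adjusted p = 0.000815 when the GC trend was removed). ITGB3 itself had 45.3 ± 2.0 and 51.5 ± 1.68 CPM in TGF-β1 and control libraries (edgeR adjusted p = 0.534). Of the cytoskeletal linkers of PDPN, MSN (moesin) had 2427 ± 242 and 2111 ± 69.3 CPM and EZR (ezrin) 691.6 ± 83.7 and 846.8 ± 48.9 CPM in TGF-β1 and control libraries (edgeR adjusted p = 0.446 and 0.292). ANXA2, a binding partner of S100 proteins, was lower in the TGF-β1 libraries at 2384 ± 218 CPM, against 3539 ± 82.4 CPM in the controls, and passed with the GC trend removed but not in the first fit (edgeR adjusted p = 0.00767 and 0.0686).

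Genes whose profile was nearest to that of LRRC15 were found by the Euclidean distance between log2(CPM + 0.5) values centred on the gene mean, over 6 libraries and 10643 genes with a symbol and a mean of at least 5 CPM. They were FN1 (distance 0.33), TGFBI (0.41), TAGLN (0.51), LTBP2 (0.68), SCG5 (0.73) and SPOCK1 (0.80). The distance takes in the difference between the groups, which chose LRRC15, so these genes are a description. FN1 had 3739, 3563 and 3372 CPM with TGF-β1 and 932.9, 959.7 and 1063 CPM in the controls. By Pearson correlation 2 of the 6 stayed among the nearest, FN1 and LTBP2 (r = 0.99 and 0.998, n = 6 libraries). With the GC trend removed 5 stayed, and VCAN took the place of SCG5.

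**Figure D5:**
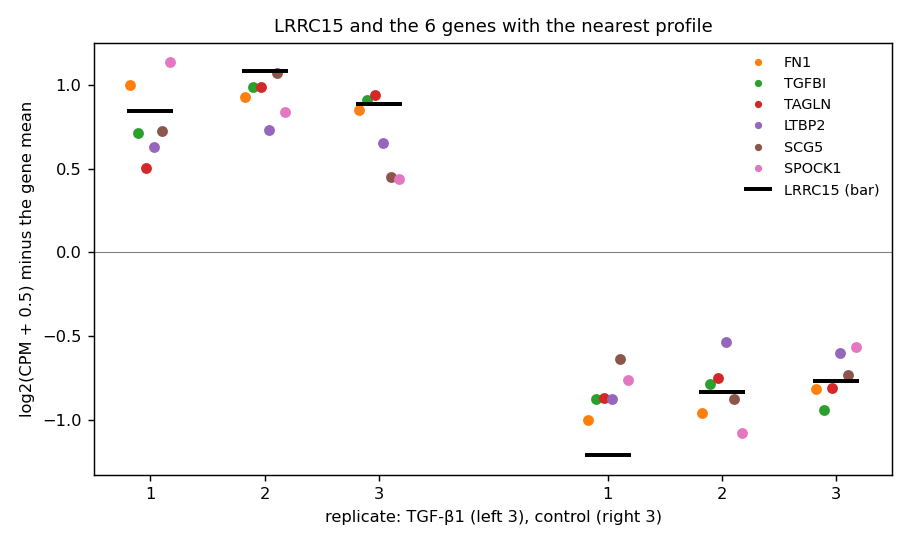
Log2(CPM + 0.5) minus the gene mean over the 6 libraries, for LRRC15 (black bars) and the 6 genes with the nearest profile (points), in the 3 TGF-β1 and the 3 control libraries. All 7 genes lie above 0 with TGF-β1 and below 0 in the controls, and control replicate 1 is lowest for LRRC15.

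The nearest profiles of the other members, among 12946 genes of at least 1 CPM, named other genes than those of LRRC15. FAP was nearest to DYNC2H1 (distance 0.49), ZNF518A (0.53) and the collagenase gene MMP13 (0.61). DYNC2H1 and ZNF518A had log2 fold changes of 1.64 and 1.50, and 1.10 and 0.88 with the GC trend removed. PDPN was nearest to SSR3, CDH2 (N-cadherin) and OSGEPL1, each at a distance of 0.14. CDH2 had 255.6 ± 29.8 CPM with TGF-β1 and 169.0 ± 25.5 CPM in the controls (edgeR adjusted p = 0.117, and 0.00948 with the GC trend removed). MME was nearest to MAP10 (0.15), UBR2 (0.17) and INTU (0.21). THY1 was nearest to TIMM50 (0.03), LGALS3BP (0.04) and PREB (0.04), and MCAM to SMPD4 (0.05), CAMKK2 (0.07) and CYTH3 (0.07).

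Cell type markers were summed as CPM on total counts. The groups were compared by two-sided exact permutation, where 3 against 3 samples cannot give a p under 0.1. Blood endothelial markers (4 genes, with CDH5 at 0 to 4 and EMCN at 0 to 2 counts) summed to 2.89 to 3.40 CPM with TGF-β1 and 3.31 to 4.52 CPM in the controls (exact permutation p = 0.2). The lymphatic pair of FLT4 and PROX1 summed to 38.9 to 49.0 and 45.6 to 53.6 CPM in TGF-β1 and control libraries (exact permutation p = 0.2), nearly all of it FLT4. Mesothelial markers, which matter for PDPN, summed to 23.3 to 25.4 and 24.7 to 29.9 CPM in TGF-β1 and control libraries (exact permutation p = 0.2), nearly all of it WT1, with UPK3B at 0 to 3 counts. Leukocyte (0.577 to 1.17 and 0.49 to 0.678 CPM, exact permutation p = 0.2), epithelial (1.29 to 2.31 and 1.35 to 1.63 CPM, p = 0.4) and hepatocyte markers (0 to 0.123 and 0 to 0.0612 CPM, p = 1) were low in TGF-β1 and control libraries, and the epithelial sum was mostly KRT7, at 18 to 38 counts per library. Pericyte and smooth muscle markers gave exact permutation p = 0.2. The 11 stellate markers summed to 3001 to 3446 CPM with TGF-β1 and 2858 to 2933 CPM in the controls (exact permutation p = 0.1, and 0.2 on TMM-scaled sizes), with COL1A1 and VIM the largest and COL3A1 the only marker of any list that edgeR called, at 156.8 CPM with TGF-β1 and 94.3 CPM in the controls. The part of any of these in the differences of the 8 genes was not tested.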

How the data were processed

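RNA sequencing of 6 LX-2 libraries was analysed, 3 given TGF-β1 and 3 controls. Whole-number counts were deposited by the authors without normalization, beside FPKM values made by the authors from the same counts, with 1 gene length per gene. HISAT2, HTSeq (version 0.13.5) and GRCh38 are named in the submitters' processing notes. No source used here names the annotation release. The NEBNext Ultra kit of the labels' protocols does not mark strand, so overlapping genes on opposite strands cannot be told apart.

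Counts were tested with edgeR 4.0.16 (quasi-likelihood F test, robust fitting, TMM, filterByExpr) in R 4.3.3. Adjustment (Benjamini-Hochberg) covered the 14463 genes that passed the filter, and calls were at an adjusted p under 0.05. The functions were tested on simulated counts. In the second fit, a loess trend (span 0.5) of each library on mean transcript GC content (GENCODE 29, 14375 genes) entered as an offset; it was chosen with earlier results known. CPM are on TMM-scaled library sizes unless said. A count of 3, the floor, was 0.17 to 0.216 CPM, counting error only. Alternatives were RLE factors, total counts, no filter, 1 CPM in 3 samples, DESeq2 1.42.0, limma 3.58.1 (voom, and log2(FPKM + 1) or log2(FPKM + 0.1)), the replicate number as a block, and each sample left out.

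Members, lists and motifs were chosen with earlier results of these data known. Named genes were the members, up to 4 called genes per list by size, DPP4, LRRC32, TPBG, GP5 and CPN2, the nearest coding neighbours of LRRC15 and the nearest profiles; every other gene, those called with the GC trend removed but not in the first fit among them, was named after its values were seen. The result of 1 list of cell type markers, which the counts of lists include, is not reported here.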

Additional observations from a re-analysis of the deposited data

How the results depend on the processing

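The log2 fold changes of LRRC15, FAP and PDPN kept their direction under every alternative run. That of LRRC15 was lowest on log2(FPKM + 1), at 1.49, and that of FAP was 0.50 on log2(FPKM + 1) and 1.49 on log2(FPKM + 0.1), scales that understate low genes. Counts of calls moved more. All genes called numbered 53, against 1240 with no filter, 597 with DESeq2, 489 with the GC trend removed and 4 to 1671 without 1 sample (with the trend removed too, 377, 107 and 1243 without TGF-β1 replicates 1, 2 and 3, and 111, 169 and 428 without control replicates 1, 2 and 3). The 4 came without TGF-β1 replicate 2 and the 1671 without TGF-β1 replicate 3; 324 came without TGF-β1 replicate 1, 13 without control replicate 1 and 15 without control replicate 3. Of the 8 members 1 was called, against 2 with RLE factors, 3 with no filter, DESeq2 or the GC trend removed, and 1 to 3 without 1 sample (1 to 3 with the trend removed too). Genes of the related lists called numbered 7, against 26 with no filter, 19 with DESeq2, 28 with the GC trend removed and 3 to 31 without 1 sample (11 to 39 with the trend removed too, among them 25 without TGF-β1 replicate 1 and 18 without control replicate 3). With the replicate number as a block, 527 genes, 2 members and 15 list genes were called, and with the GC trend removed 252, 2 and 17. Same-numbered samples deviated with correlations of 0.156, 0.0892 and -0.323 (-0.00625, 0.117 and -0.209 with the GC trend removed). Those of samples with unlike numbers ran from -0.465 to 0.403 before removal. With 3 samples a group, these correlations cannot settle whether the numbers pair the samples. LRRC15 was 3 in FPKM rank with TGF-β1, and 4 without TGF-β1 replicates 2 or 3. Of the summed cell type markers, 2 lists reached an exact permutation p of 0.1, and 1 did on TMM-scaled sizes. The causes were not tested. Over all genes, 2262 had an unadjusted p under 0.05. Depth limits S100A4 and CD248, with up to 15 and 12 counts per library, and FAP in the controls, with 13, 20 and 15 counts.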
